A study of Mus musculus with 1183 samples.

Results

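The cell cycle genes examined here are 42 rows of a table of 18072 genes, chosen by symbol. They are 19 genes of S phase, from Mcm2 to E2f1, in which DNA is copied, and 23 genes of G2 and mitosis (G2/M), from Mki67 to Cks2. The table holds read counts of 1183 single immune cells of the mouse distal lung on postnatal day 7, 598 from a female and 585 from a male. Both had breathed air with more oxygen than normal (hyperoxia), which harms the growing lung. Each sex has 1 animal, so sex and animal cannot be told apart and no test was made between them. The labels give each cell 1 of 16 subtypes by name only: 5 macrophage subtypes (Mac I to Mac V), 3 of dendritic cells (DC I to DC III), mast cell and mast cell II, basophil, neutrophil, B cell, T cell, NK cell and IL cell. No cells from normal air are analysed here, so no effect of oxygen was estimated.

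A dividing cell turns on its replication genes before and during S phase, when the E2F transcription factors are released from the Rb proteins. The genes of mitosis follow later and are shared targets of the B-Myb and FoxM1 factors, which act at the cell cycle homology region (CHR) together with NF-Y, a factor that binds CCAAT boxes. Tissue macrophages can renew themselves by division in place, lymphocytes divide when activated or while they develop, and neutrophils leave the dividing pool in the bone marrow before they enter blood.

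The promoters of the genes were read first, because they show what the members of each phase share beyond their names. RefSeq start sites on GRCm38.p6 were matched for 35 of the 42 genes, which gave 38 promoters of 250 bases before and 50 after the start. E2F sites were searched as TTTCCCGC, TTTGGCGC, TTTCGCGC and TTTGCCGC, the CHR as TTTGAA and TTCGAA, and the CCAAT box as CCAAT, each on both strands, with overlapping matches of 1 kind counted once. An E2F site was found in 6 of 19 S phase promoters (31.6%) and in 1 of 19 G2/M promoters (5.26%), against 744 of 32851 promoters of all genes (2.26%). A CHR was found in 4 of 19 S phase promoters (21.1%), in 14 of 19 G2/M promoters (73.7%) and in 19.2% of all promoters. A CHR together with 2 or more CCAAT boxes was found in 11 of 19 G2/M promoters (57.9%), in 2 of 19 S phase promoters and in 2.27% of all promoters. A match is a run of letters and not a measured binding site. The sequences below are 2 per phase, taken in order of E2F matches for S phase and of CHR and then CCAAT matches for G2/M, with ties settled by the order of the gene list (Mcm7 tied with Mcm3 and Mcm6, and Cdk1 and Ccnb2 with Mki67). They are written 5′ to 3′ on the strand of the gene, with the E2F matches of Mcm3 and Mcm6 and the CHR and CCAAT matches of Top2a and Mki67 in capitals. For Mcm3, whose matches lie after the start, a site of 30 bases is shown (chr1:20820266-20820295, minus strand). The other 3 are the 250 bases before the start, all on the minus strand, at chr1:128359706-128359955 for Mcm6, chr11:99024190-99024439 for Top2a and chr7:135716380-135716629 for Mki67.
Mcm3: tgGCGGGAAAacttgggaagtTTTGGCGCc
Mcm6: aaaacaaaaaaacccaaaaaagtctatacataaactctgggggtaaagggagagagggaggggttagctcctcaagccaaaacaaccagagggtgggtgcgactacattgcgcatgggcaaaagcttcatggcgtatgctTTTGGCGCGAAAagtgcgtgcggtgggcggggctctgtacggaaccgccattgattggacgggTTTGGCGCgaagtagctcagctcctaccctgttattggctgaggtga
Top2a: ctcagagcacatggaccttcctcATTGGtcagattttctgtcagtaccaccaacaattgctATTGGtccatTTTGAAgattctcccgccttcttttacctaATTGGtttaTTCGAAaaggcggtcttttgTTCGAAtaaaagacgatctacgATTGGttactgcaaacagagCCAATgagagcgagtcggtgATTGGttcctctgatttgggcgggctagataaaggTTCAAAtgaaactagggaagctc
Mki67: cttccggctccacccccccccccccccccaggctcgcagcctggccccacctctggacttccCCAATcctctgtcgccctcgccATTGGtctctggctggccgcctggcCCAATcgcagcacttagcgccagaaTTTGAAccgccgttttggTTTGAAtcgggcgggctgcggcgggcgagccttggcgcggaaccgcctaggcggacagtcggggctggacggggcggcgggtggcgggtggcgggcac
Mcm3 and Mcm6 encode subunits of the ring-shaped helicase that opens DNA at replication forks. Top2a encodes the topoisomerase that untangles copied chromosomes, and Mki67 the Ki-67 protein that coats chromosomes in mitosis. The Top2a promoter held 4 CHR and 6 CCAAT matches, and that of Mki67 held 2 CHR and 3 CCAAT matches. The 2 helicase genes had no CHR match.

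Depth ran from 16753 to 7560179 reads per cell, with a median of 1100966. The sort had selected CD45, which marks cells of blood origin, except on the plates of 10 cells. For tests, counts were summed per animal and subtype, and Mac I, with 1 cell, was left out, so that 15 subtypes gave 30 sums of 6024429 to 235566546 reads. Levels are given as CPM, reads scaled to the total of the sum, in the female and then the male. All 4 marker genes chosen for the subtype were higher there than in every other kind of cell for B cell, DC I, DC III, Mac IV, NK cell, basophil, mast cell and neutrophil, while the count was 3 for T cell and IL cell, 2 for DC II, Mac III, Mac V and mast cell II and 0 for Mac II. In that count mast cell, mast cell II and basophil were taken as 1 kind and not compared with each other. The summed mast cell II markers were highest in mast cell, at up to 32795 CPM. The subtype labels may themselves come from the expression of these cells, so the comparisons describe the labelled classes.

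To count cells by phase, reads were drawn at random until each cell had 100000, and 1178 cells were deep enough. A gene counted as detected with at least 5 reads, and a cell was placed in S phase or in G2/M with at least 4 detected genes of that phase. S phase genes were present in 24.3% of the 596 female cells (95% exact binomial interval 20.9 to 28%) and in 24.2% of the 582 male cells (20.8 to 27.9%). G2/M genes were present in 85 female cells (14.3%, 11.6 to 17.3) and 98 male cells (16.8%, 13.9 to 20.1). Over the 2 animals the share was 24.3% ± 0.072 (SD, n = 2) for S phase and 15.6% ± 1.82 (SD, n = 2) for G2/M. The classes are ranges of a count: 46 female and 56 male cells had 3 S phase genes and 33 and 25 had 4, while 23 and 24 cells had 3 G2/M genes and 10 and 8 had 4. Both phases were present together in 68 female and 77 male cells, S phase alone in 77 and 64, and G2/M alone in 17 and 21.

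The subtypes differed widely, and the 2 animals gave a similar picture in the larger ones. In mast cell II, a class that the labels name apart from mast cell, 12 of 14 female and 8 of 8 male cells had genes of either phase. Among the 2 largest macrophage subtypes these were 33.1% and 34.1% of Mac III cells and 24 of 63 and 33 of 79 Mac IV cells. B cells had 20 of 39 and 10 of 25, and T cells 7 of 26 and 7 of 20. DC I had 8 of 16 and 12 of 24, and mast cell 11 of 39 and 6 of 20. At the other end stood Mac V with 5 of 66 and 1 of 44, Mac II with 1 of 27 and 1 of 20, DC III with 1 of 11 in each animal, basophil with 2 of 34 and 0 of 19, and neutrophil with 1 of 55 and 1 of 78.

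**Figure D1:**
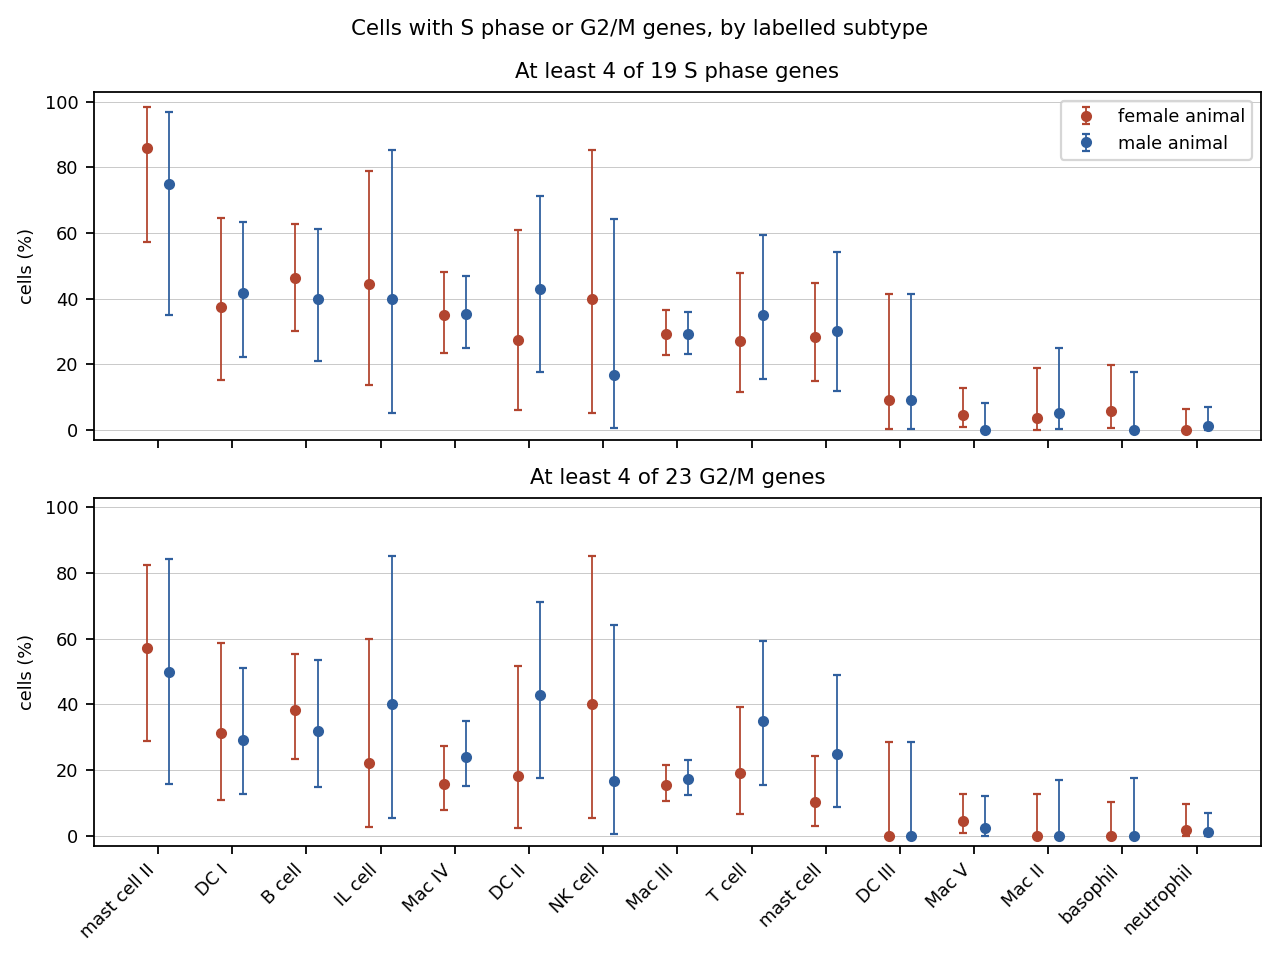
Share of cells (%) with at least 4 S phase genes (top) and at least 4 G2/M genes (bottom) in each labelled subtype, for the female and the male animal, with exact 95% binomial intervals that cover counting error only. Mast cell II had the highest S phase share in each animal, 85.7% and 75%, and no G2/M cell was found in Mac II, DC III or basophil.

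For these last subtypes the G2/M count was 0, which by a limit of 3 counts allows a share of up to 11.1% of the 27 female and 15% of the 20 male Mac II cells. Among the macrophages with over 100 cells, Mac III and Mac V had S phase intervals of 22.8 to 36.5% and 0.947 to 12.7% in the female and of 23.2 to 36% and 0 to 8.04% in the male, which do not overlap. Mac IV had the highest S phase shares of the macrophages with over 100 cells, 34.9% and 35.4% against 29.3% in each animal for Mac III, and its intervals overlapped those of Mac III in both animals. By plate, the share of cells with genes of either phase was 30.7%, 24.1%, 27.7% and 28%. The first of these plates is the 1 in sequencing run DC28, the others were in DC35. Cells with phase genes had more genes detected after thinning, with medians of 4189 against 3050 in the female and 4212 against 3139 in the male, at median depths of 1130370 against 1079200 and 1204010 against 1082340 reads. The median number of genes detected also differed by subtype. It was 1287 and 1398 in neutrophil, 1919.5 and 1959 in basophil, and 4769 and 3970 in mast cell II. Mac II, also with few phase cells, stood at 3890 and 3822.5. The part of these differences in the phase counts was not tested.

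Many cells with S phase genes also had G2/M genes. Of cells with S phase genes, 46.9% in the female (interval 38.6 to 55.4%) also had G2/M genes, and 54.6% in the male (46 to 63%). In Mac III these were 21 of 53 and 26 of 61, and in Mac IV 8 of 22 and 14 of 28. In B cells they were 13 of 18 and 8 of 10, and in T cells 5 of 7 and 7 of 7. The B and T cell shares were higher than the Mac III share in each animal, and the difference was not tested. The intervals of Mac III (female 26.5 to 54%, male 30.04 to 55.9%) overlapped those of B cell in both animals (46.5 to 90.3% and 44.4 to 97.5%) and that of T cell in the female (29 to 96.3%) but not in the male (59 to 100%). In mast cell II the female had 8 of 12 and the male 2 of 6.

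**Figure D2:**
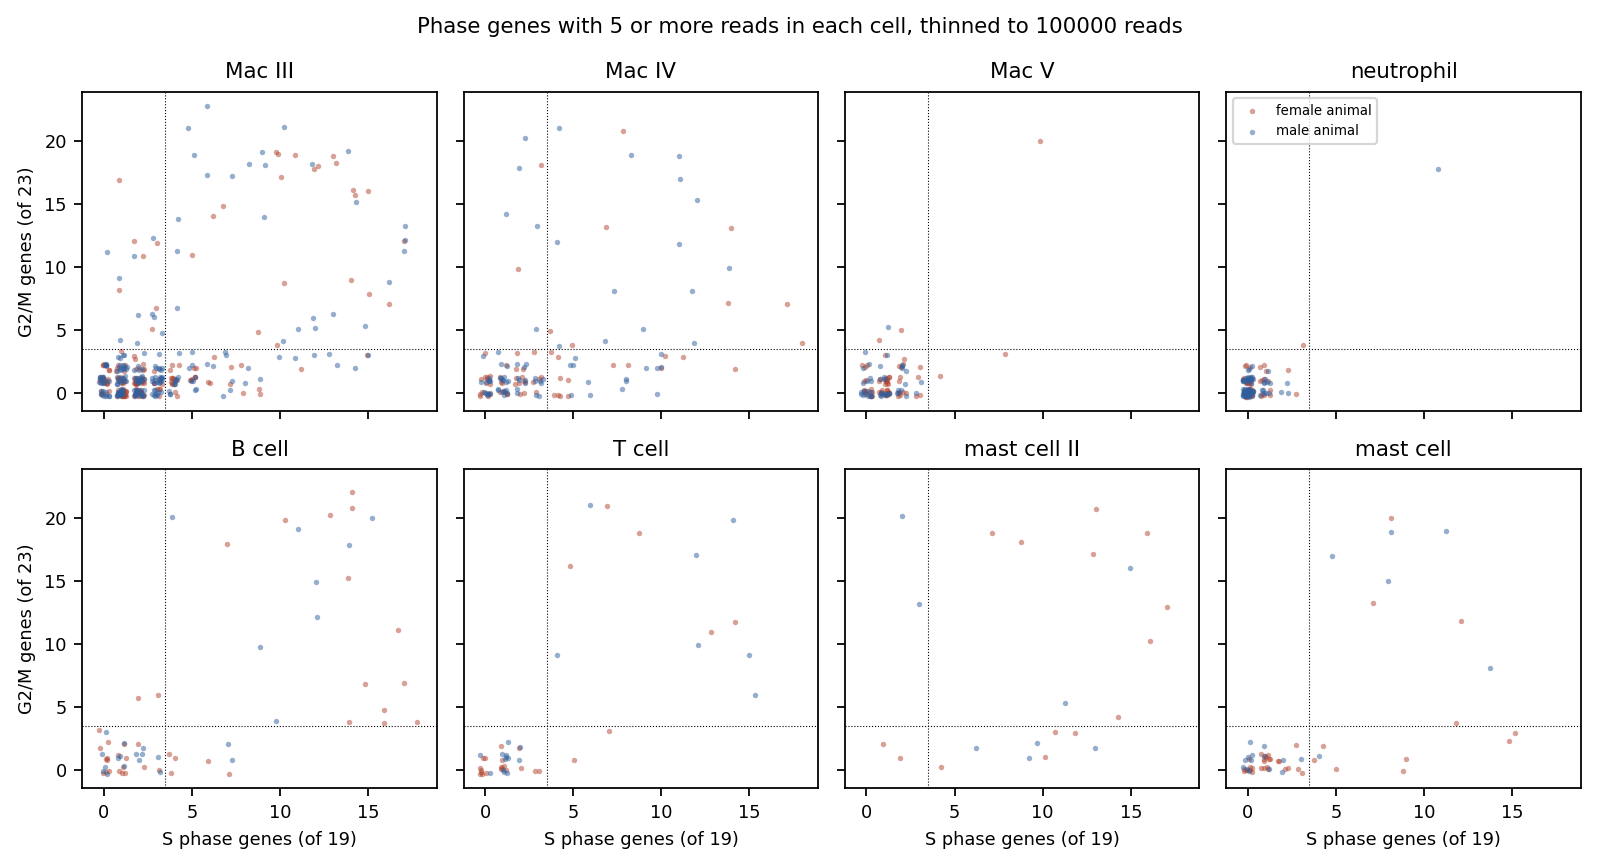
Number of S phase genes (horizontal, of 19) and G2/M genes (vertical, of 23) with 5 or more reads in each cell of 8 subtypes, after thinning to 100000 reads; points are cells, spread slightly at random, and dotted lines mark the limit of 4 genes. Mac III and Mac IV cells spread along the bottom and over the upper right, while 1 male neutrophil stands apart with 11 S phase and 18 G2/M genes.

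Most reads of the genes came from few cells. The 14.3% of female cells in G2/M held 87% of the reads of the 23 G2/M genes, and the 16.8% of male cells held 90.9%. For the S phase genes, 24.3% and 24.2% of cells held 81.4% and 80.9%. These shares follow in part from the rule that placed the cells. In Mac V, 3 of 66 female cells were placed in S phase and held 13.8% of the S phase reads, and 3 were placed in G2/M and held 54% of the G2/M reads. In the male, 0 of 44 Mac V cells were placed in S phase, and 1 in G2/M, which held 5.10% of the G2/M reads.

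Genes that took no part in the placing followed the same order. Of 24 other genes of mitosis, 23 had a lower level in cells with S phase genes alone than in cells with G2/M genes alone in each animal, the exception being Bora, a cofactor of Aurora A. Of 23 other replication genes, 18 were higher in the cells with S phase genes alone in each animal. The median mitosis gene was detected in 3.24% and 3.13% of S phase cells, in 23.5% and 33.3% of G2/M cells, in 54.4% and 55.8% of cells with both, and in 1.15% and 1.67% of the remaining cells. For the replication genes the same medians were 23.4% and 23.4%, 5.88% and 9.52%, 54.4% and 45.5%, and 3.0% and 2.86%. Clspn, which encodes the checkpoint adaptor claspin, was at 8.72 and 23.8 CPM in cells with S phase genes alone. It was at 153.3 and 110.9 CPM in cells with both, and at 0.0526 and 0.264 CPM in the remaining cells. Foxm1, which encodes the mitotic transcription factor, was at 51.8 and 53.8 CPM in cells with both phases and 0.141 and 0.201 CPM in the remaining cells.

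Pttg1 encodes securin, the guard of sister chromatid cohesion. Of the 24 other mitosis genes it alone was lower in cells with both phases than in cells with neither in each animal. It was detected in 29.5% and 31.9% of cells placed in neither phase. Its level there was 72.2 and 101.9 CPM, against 58.5 and 84.1 CPM in cells with both phases. In Mac III it was at 73.5 and 71.6 CPM in cells with neither phase and at 56.4 and 87.4 CPM in cells with both, lower in the female and higher in the male. Cdk4, the kinase of early G1, was widespread, in 44.9% and 37.6% of cells placed in neither phase and in 89.7% and 77.9% of those with both. Btg1, which restrains proliferation, was at 827 and 976 CPM in cells placed in neither phase and at 287.8 and 371.5 CPM in those with both. Within Mac III that gap was 325.6 and 377.4 against 285.5 and 254.7 CPM, and the mix of subtypes differs between the classes.

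How closely each gene follows the cycle was read by counting its detection in cells placed by the other members only, leaving the gene itself out. In cells with at least 4 other S phase or 4 other G2/M genes, the median S phase gene was detected in 44.6% of cells of each animal. In the remaining cells it was detected in 4.79% and 4.02%. The remaining cells had fewer than 4 other genes of each phase, and not always none. The median G2/M gene was detected in 31.7% and 36.3% against 1.61% and 1.43%. Detection at a fixed number of reads also depends on a gene's level and length, so the 2 values of a gene are compared and not 2 genes. Of the 23 G2/M genes 15 were in under 2% of the remaining cells, and of the 19 S phase genes 7.

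Several genes were almost silent in the remaining cells. Cdc6, the loader of the replicative helicase, was detected in 18.5% and 17.3% of cells with other phase genes and in 2 of 434 and 0 of 420 of the rest. Rrm2, the regulated subunit of ribonucleotide reductase, had 39.1% and 44.1% against 4 of 435 and 2 of 421. Ccna2, cyclin A2, had 36.4% and 38.9% against 2 of 434 and 1 of 420. Among the genes of mitosis, Plk1, the Polo kinase, had 19.8% and 22.8% against 1 of 434 and 1 of 420, and Cdc20, the activator of the anaphase promoting complex, 22.8% and 27.8% against 0 of 434 and 2 of 420. Plk1 was detected in 55.8% and 60.7% of cells with 10 or more other G2/M genes and in 6.25% and 0% of those with 4 to 9.

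**Figure D3:**
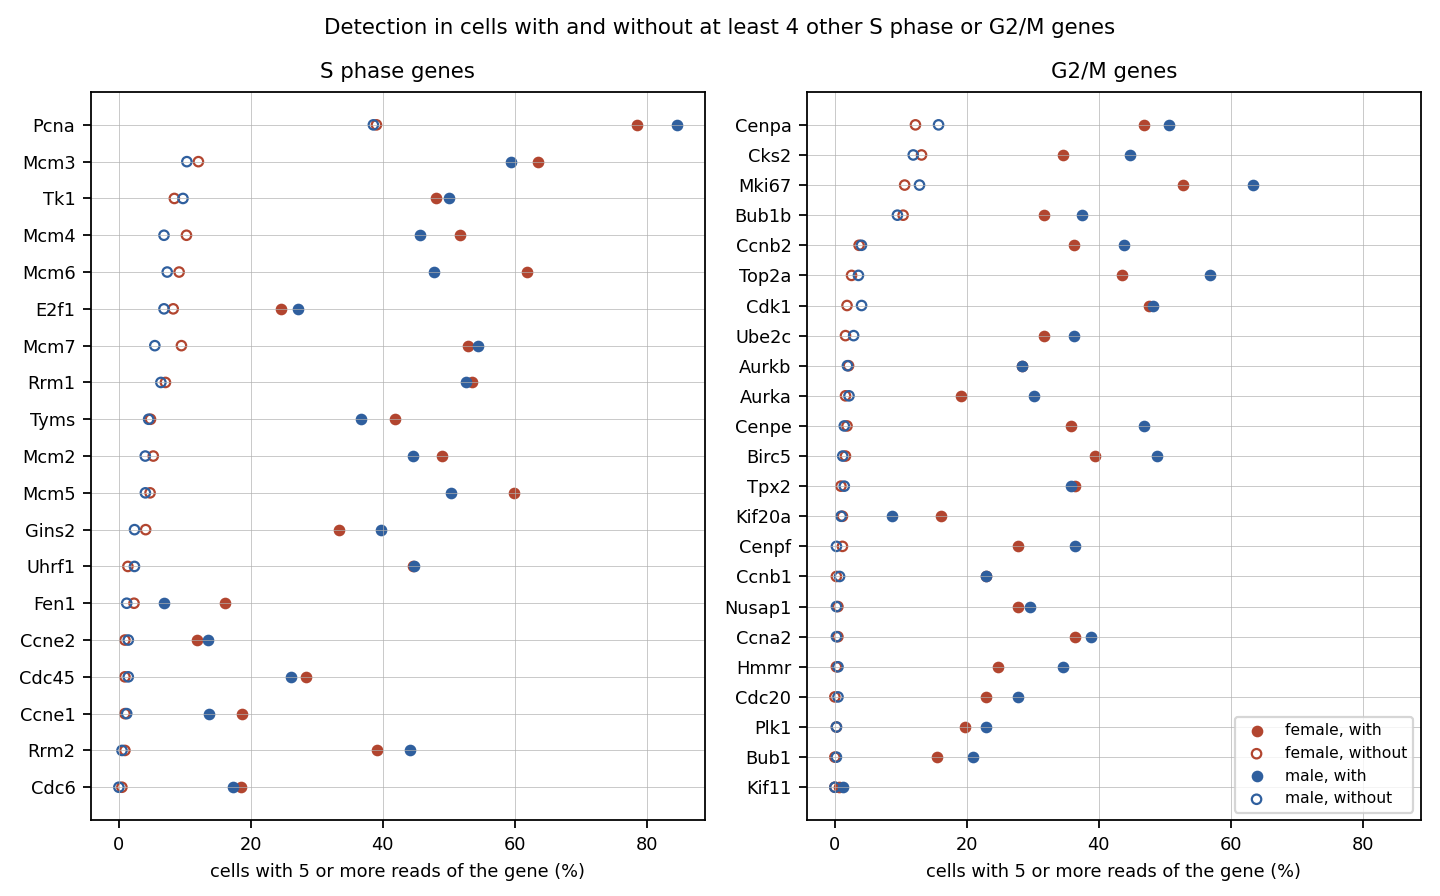
Share of cells (%) with 5 or more reads of each gene, in cells with at least 4 other S phase or G2/M genes (filled) and in all other cells (open), for the female and the male animal. Pcna lies far to the right among the open points, near 39% in each animal, and Cenpa, Cks2, Mki67 and Bub1b lie above the other G2/M genes.

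Other members were often present in cells with fewer than 4 other genes of each phase. Pcna, which encodes the clamp of the replication polymerases and also serves in DNA repair, was detected in 39% of the 456 and 38.6% of the 433 remaining cells. In these cells it was found in 59.8% and 59.6% of Mac III cells and in 21 of 27 and 11 of 20 Mac II cells, but in 4 of 54 and 9 of 77 neutrophils. Mki67 was detected in 46 of 435 and 54 of 421 of the remaining cells. It was found in 13.2% and 16.7% of Mac III cells, 13 of 62 and 5 of 43 Mac V cells and 9 of 54 and 7 of 77 neutrophils, and in 0 of 39 and 2 of 46 Mac IV cells.

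Bub1b and Cenpa differed in opposite ways between Mac III and Mac IV. Bub1b, which encodes the spindle checkpoint kinase BubR1, was counted in cells with fewer than 4 other genes of each phase. It was detected in 28.1% of such female Mac III cells (interval 20.3 to 37%) and 25.9% of male ones (18.8 to 34%). It was detected in 6 of 26 and 4 of 19 such Mac II cells, and in 0 of 39 and 0 of 46 Mac IV cells, which allows up to 7.69% and 6.52%. Mac V had 2 of 62 and 0 of 43, and neutrophils had 0 of 54 and 0 of 77. Cenpa, the histone H3 variant that marks the centromere, was detected in 18 of 39 and 20 of 46 such Mac IV cells (46.2%, 30.1 to 62.8, and 43.5%, 28.9 to 58.9). In Mac III it was detected in 4.96% (1.84 to 10.5%) and 8.76% (4.61 to 14.8%). Mac V had 2 of 61 and 4 of 43, and Mac II had 1 of 26 and 5 of 19. B cells and T cells stood with Mac IV, at 6 of 19 and 7 of 15 B cells and 5 of 19 and 6 of 13 T cells. For both genes the intervals of Mac III and Mac IV do not overlap in either animal. Bub1, the kinase paired with BubR1 in the checkpoint, was detected in 0 of 434 and 1 of 420 such cells, all subtypes together.

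Cks2 and Gins2 varied among the subtypes in other ways. Cks2, a small subunit of the cyclin-dependent kinases, was again counted in cells with fewer than 4 other genes of each phase. It was detected in 8 of 28 and 4 of 14 mast cells, 5 of 32 and 6 of 19 basophils, and 12 of 54 and 10 of 77 neutrophils. Mac V cells had 9 of 61 and 9 of 43, Mac III cells 9.09% and 9.42%, and Mac IV cells 3 of 39 and 2 of 46. Gins2, a subunit of the replicative helicase complex, was detected in 9 of 44 and 6 of 46 such Mac IV cells and in 5 female and 2 male Mac III cells, 4.07% and 1.46%. The exons of 11 of the 42 genes, Gins2 among them, overlap those of a protein-coding gene on the other strand in the GRCm38 annotation, and reads of such a pair cannot be told apart unless strand was used in counting. Bub1b, Cenpa, Cks2, Pcna and Mki67 are not among the 11.

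**Figure D4:**
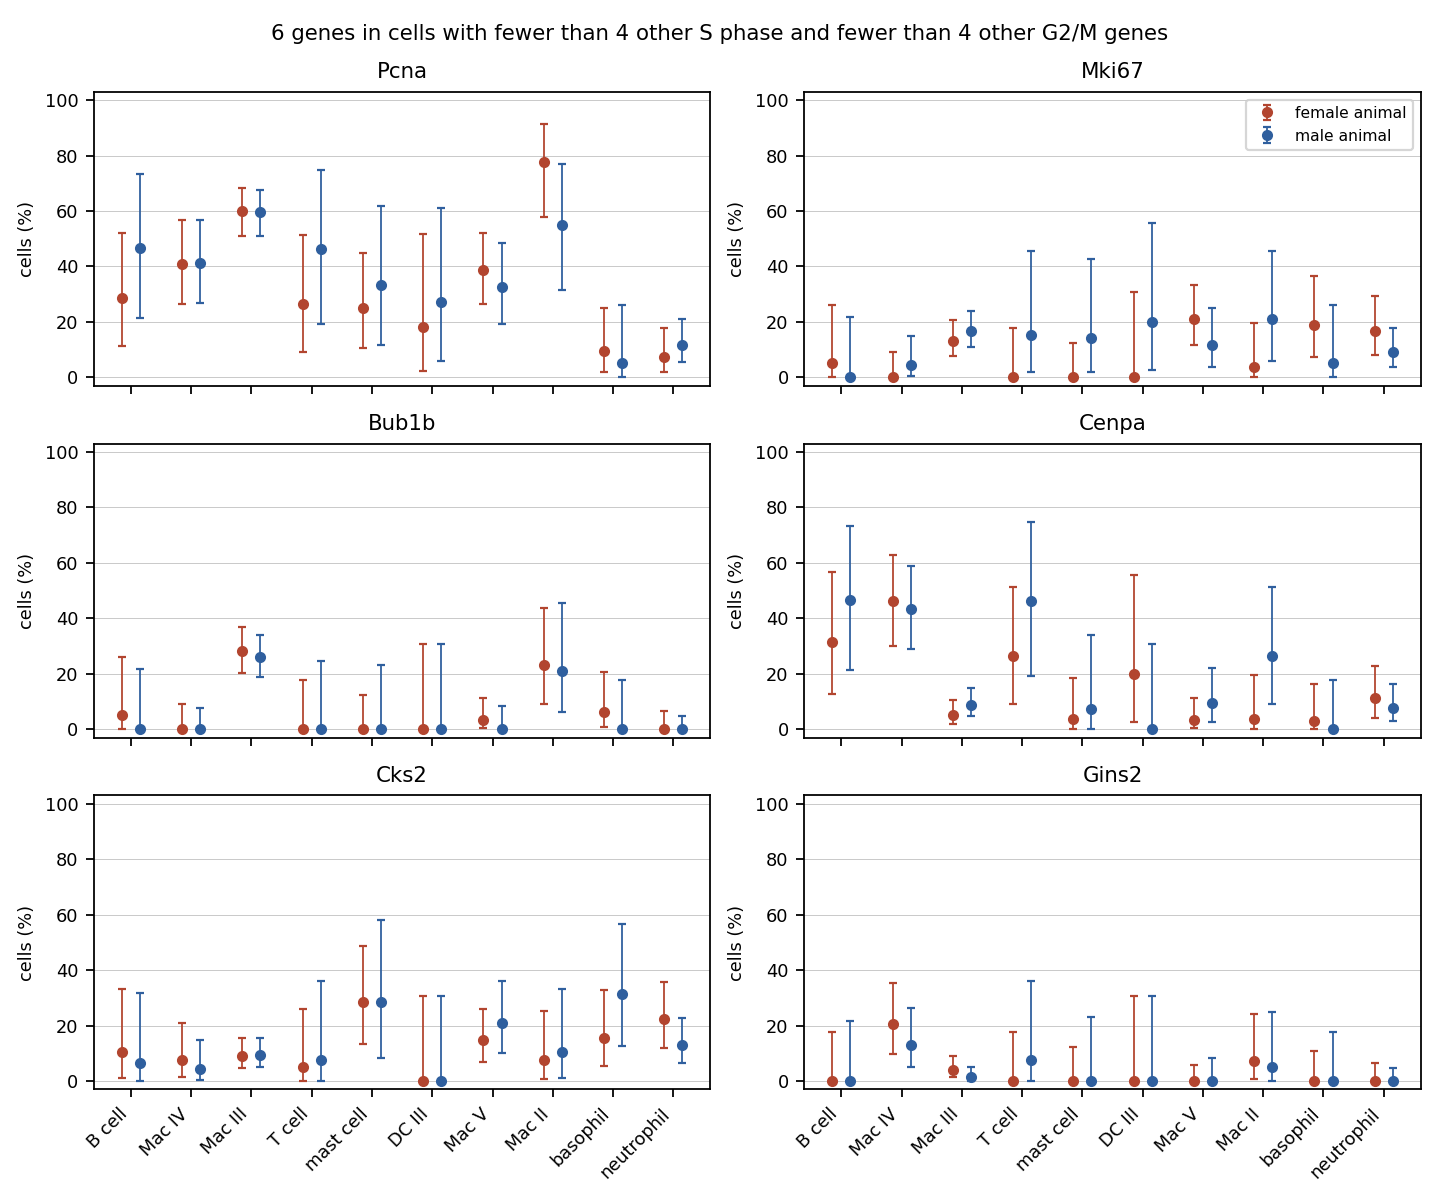
Share of cells (%) with 5 or more reads of 6 genes, among cells with fewer than 4 other S phase and fewer than 4 other G2/M genes, in the 10 subtypes with at least 10 such cells in each animal, with exact 95% binomial intervals. Bub1b is raised in Mac III and Mac II, Cenpa in Mac IV, B cell and T cell, and the female and male points lie close in the large subtypes.

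Over all cells of a subtype, the genes can be ranked by level. In a sum of cells, fewer dividing cells and less RNA in each cannot be told apart. By the mean of the animals, mast cell II was the highest subtype for 10 of 19 S phase genes. NK cell, a sum of only 5 and 7 cells, was the highest for 9 of 23 G2/M genes. Of the G2/M reads in NK cells deep enough for thinning, 2 female cells held 94.2% and 1 male cell held 99.3%. Mcm6 was at 692 and 143.9 CPM in mast cell II, 79.5 and 15.5 in mast cell, 49.8 and 61.6 in Mac III, 85.5 and 44.3 in Mac IV, and 2.61 and 0.673 in Mac V. The female and male mast cell II values are further apart than those of Mac III and Mac IV are from each other. Top2a was at 86.7 and 118.6 CPM in Mac III, 57.2 and 211.1 in Mac IV, 599 and 671 in B cell, 591 and 729 in T cell, and 18.5 and 3.52 in Mac V. Bub1b was the only member highest in Mac III within each animal, at 57 and 68.1 CPM, close to the 56.9 and 65.6 CPM of B cell. Kif11, the motor that separates spindle poles, stayed at 0.578 and 1.27 CPM over all cells and was detected in 1 female and 2 male cells with other phase genes, so it carries little of the G2/M counts.

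**Figure D5:**
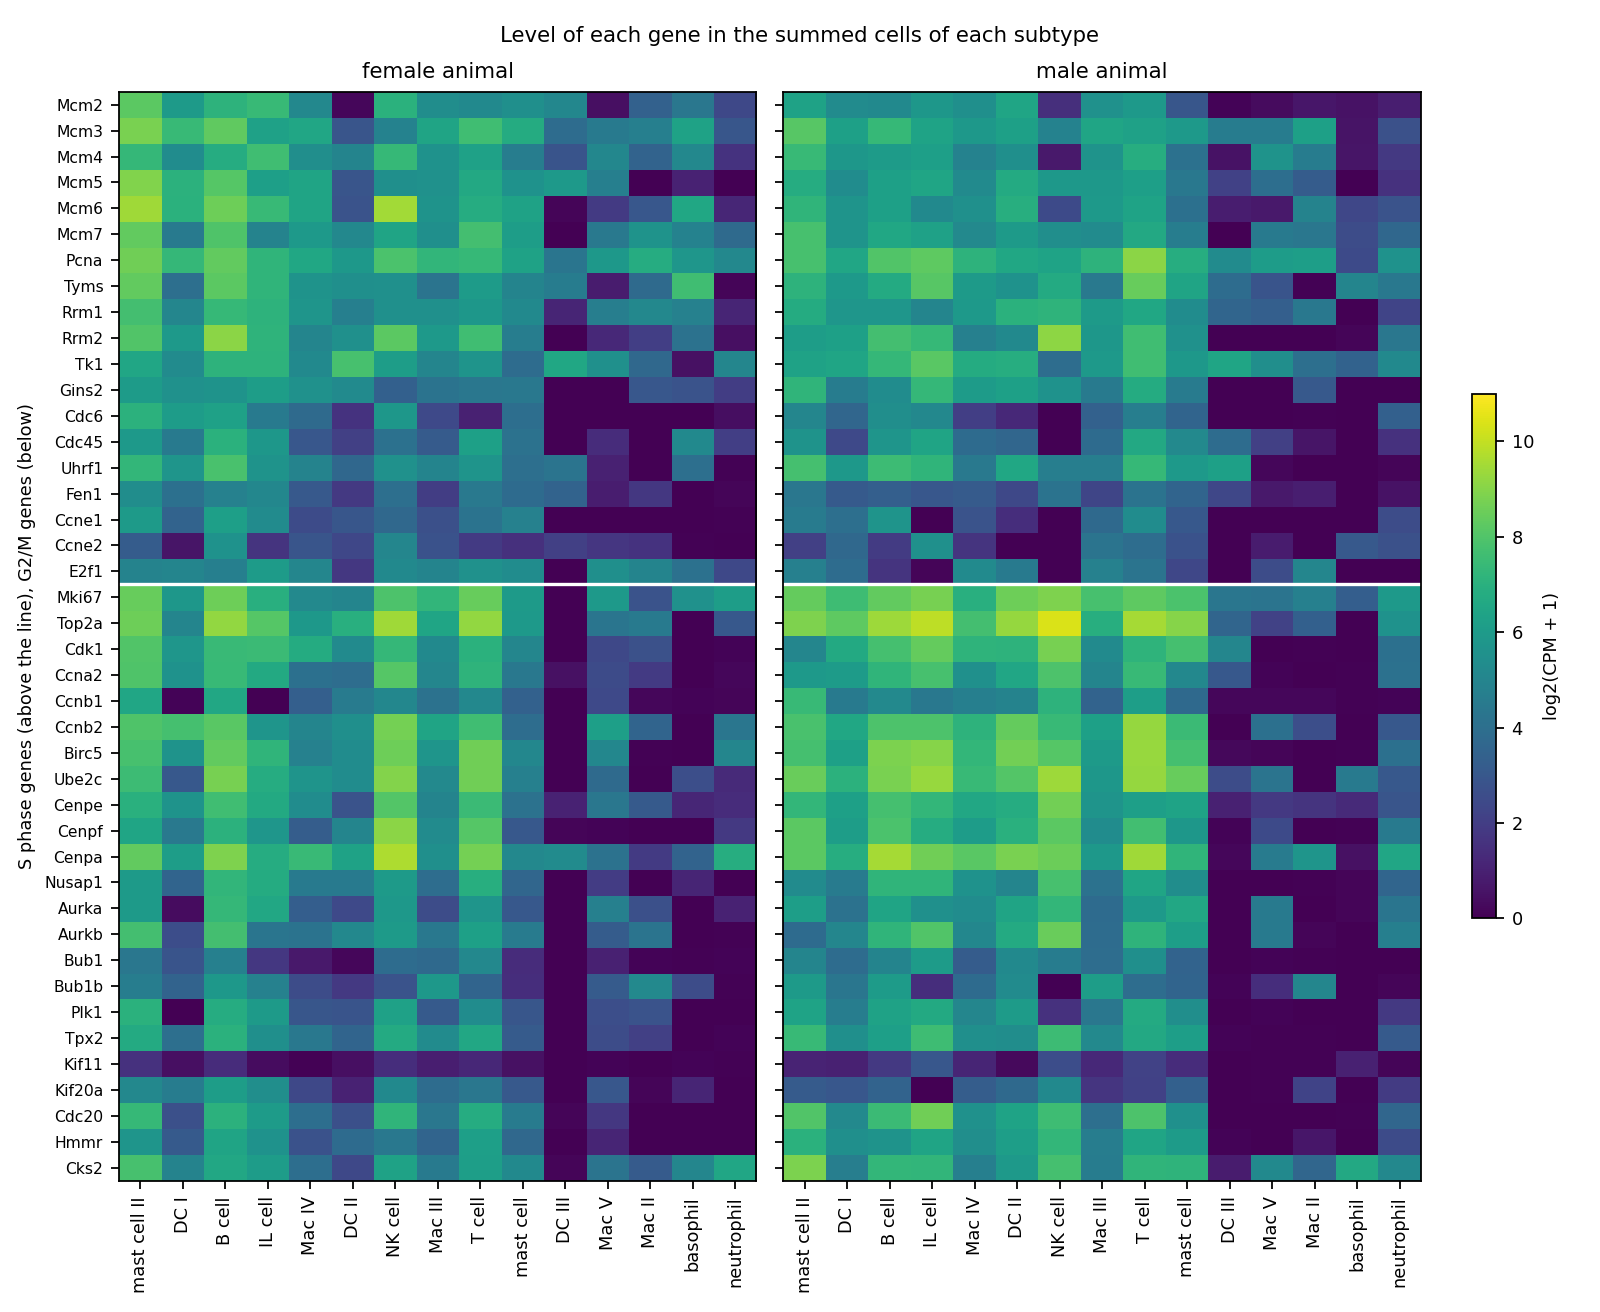
Level of each gene, as log2 of CPM plus 1, in the summed cells of each labelled subtype for the female (left) and the male (right), with S phase genes above the white line and G2/M genes below. The subtypes are ordered by their share of cells with genes of either phase; Bub1b is brightest in Mac III and B cell, and the Kif11 row stays dark in all columns.

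Levels were then compared between subtypes with edgeR's quasi-likelihood F test on the 30 sums, adjusted by Benjamini-Hochberg over the 15600 genes tested, among them all 42 members. The share of all genes called is given as the background. For a difference of any kind among the 15 subtypes, 23 of 42 members were called, 8 of 19 S phase and 15 of 23 G2/M genes, against 34.3% of all genes. Those with the lowest adjusted p were Ccnb2 (0.000459), a cyclin of mitosis, Cenpf (0.000461), a kinetochore protein, and Birc5 (0.000803), survivin. Next came Mcm7 (0.00113), the lowest of the S phase genes, Cenpe (0.00172), a kinetochore motor, Top2a (0.00317), Ube2c (0.00405) and Cdc20 (0.00496). Mki67, at an adjusted p of 0.224, and E2f1, at 0.813, did not pass. Of the other mitosis genes 15 of 24 were called, those with the lowest adjusted p being Smc4 (0.00023), a condensin subunit, Mad2l1 (0.00106), Kif23 (0.00207) and Nuf2 (0.00332). Of the other replication genes 7 of 23 were called, led by Clspn (0.000968), Exo1 (0.00483), Slbp (0.0144) and Dut (0.0221). Among the genes that set entry into the cycle, 5 of 9 G1 cyclins and kinases were called, led by Ccnd1, Ccnd3, Ccnd2 and Cdk4, and 4 of 6 inhibitors of cyclin-dependent kinases, Cdkn1a, Cdkn2d, Cdkn2c and Cdkn2b. The Rb and E2F family had 2 of 12, Foxm1 and E2f7, and the quiescence genes 4 of 5, Btg2, Btg1, Klf2 and Klf4.

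Between single pairs of subtypes few genes of any kind passed. Mac III against Mac V gave 0 of 42 members. Over all genes the calls in favour of Mac III made up 0.128% and those in favour of Mac V 0.314%. At an unadjusted p under 0.05 there were 7 of 19 S phase and 3 of 23 G2/M genes, against 1467 of all 15600 genes. DESeq2 called 7 members. The share of all genes that DESeq2 called is not given here for any pair. The median log2 fold change was 2.12 over the S phase genes and 2.52 over the G2/M genes, against 0.14 over all genes. Gins2 was at 17.4 and 22.4 CPM in Mac III and at 0 reads in both animals of Mac V (edgeR adjusted p 0.0534). By the limit of 3 counts over the group it was at least 867-fold higher. Here and below, that limit treats reads as independent, which they are not. It covers counting error only and is no lower limit over cells or animals. Hmmr, a spindle assembly factor, was at 10.6 and 24.1 against 1.23 and 0 CPM. Btg2, an antiproliferative gene that is not a member, was called lower in Mac III, at 199.1 and 192.6 against 1672 and 1596 CPM, with a log2 fold change of -3.12 ± 0.63 (SE, adjusted p 0.0275).

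Mac IV against Mac V gave 0 members, on a background of 0.0962% of genes in favour of Mac IV and 0.0705% in favour of Mac V. There were 9 of 19 S phase and 8 of 23 G2/M genes at an unadjusted p under 0.05, against 1660 of all 15600 genes. DESeq2 called 11 members. The medians were 1.95 and 2.87 against 0.07 over all genes. Gins2 was at 46.8 and 65.6 CPM in Mac IV and at 0 reads in Mac V (edgeR adjusted p 0.0584). By the limit of 3 counts it was at least 2473-fold higher. Cdk1, the kinase that starts mitosis, was at 109.2 and 141.5 against 4.17 and 0 CPM. Ccnd3, cyclin D3 of G1, which is not a member, was called lower in Mac IV, with a log2 fold change of -2.90 ± 0.59 (SE, adjusted p 0.0438). This comparison and the one before share the Mac V sums.

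Mac III against Mac II gave 0 members, on a background of 0% of genes in favour of Mac III and 0.0256% in favour of Mac II. An edgeR fit with a block for the animal called 2 members, Ube2c (adjusted p 0.00692) and Cenpf (0.00857). Ube2c, the ubiquitin carrier of the anaphase promoting complex, was at 35.1 and 55.7 CPM in Mac III and at 0 reads in Mac II, at least 1077-fold higher. Cenpf was at 38.3 and 39.2 CPM in Mac III and also at 0 reads in Mac II, at least 908-fold higher by that limit. At an unadjusted p under 0.05 there were 4 of 19 S phase and 14 of 23 G2/M genes, against 692 of all 15600 genes. DESeq2 called 10 members. The medians were 1.62 and 3.69 against 0.11 over all genes. Ccne1, cyclin E1, was at 5.37 and 12.5 CPM in Mac III and at 0 reads in Mac II (edgeR adjusted p 0.816). By the same limit it was at least 213.8-fold higher.

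Mac III against Mac IV gave 0 members, on a background of 0.0513% of genes in favour of Mac III and 0.212% in favour of Mac IV. No member had an unadjusted p under 0.05, against 1231 of all 15600 genes, and DESeq2 called 0 members. The medians were 0.00 over S phase and -0.36 over G2/M genes, against 0.00 over all genes. Bub1b was at 57 and 68.1 against 4.85 and 13.6 CPM, a log2 fold change of 2.79 ± 2.04 (SE, edgeR adjusted p 0.918). Ccne2, cyclin E2, had the largest S phase value, at 5.88 and 17.9 against 6.45 and 2.16 CPM (adjusted p of 1). Cenpa was at 43.8 and 57 against 172.5 and 290 CPM, a log2 fold change of -2.16 ± 1.46 (SE, adjusted p 0.865). The values of Bub1b and of Cenpa did not overlap between the subtypes. Among the members, 2 S phase and 3 G2/M genes were higher in both Mac III sums than in either Mac IV sum. In the other direction there were 4 S phase and 3 G2/M genes. The share over all genes was not counted. With only these 2 subtypes in the edgeR fit, the adjusted p was 0.0392 for Bub1b, higher in Mac III. It was 0.0208 for Cenpa, 0.0179 for Cdk1 and 0.0461 for Tyms, thymidylate synthase, all 3 lower in Mac III. The share of all genes called in that fit is not given here.

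Mast cell II against mast cell gave 0 members, on a background of 0.141% of genes in favour of mast cell II and 0.647% in favour of mast cell. No member had an unadjusted p under 0.05, against 2079 of all 15600 genes, and DESeq2 called 0 members. The medians were 1.33 and 0.56 against -0.13 over all genes. The largest S phase value was that of Mcm6, a log2 fold change of 2.32 ± 1.68 (SE, adjusted p 0.629). The largest G2/M value was that of Ccnb1, cyclin B1, at 90.5 and 171.2 against 9.79 and 12.4 CPM (adjusted p 0.617). Among genes outside the 42, Cdkn1a, the p21 inhibitor of cyclin-dependent kinases, was called lower in mast cell II, with a log2 fold change of -3.93 ± 0.82 (SE, adjusted p 0.0278), as was Btg1, with -2.27 ± 0.51 (SE, adjusted p 0.0367). Btg2 was called higher, with 7.33 ± 0.77 (SE, adjusted p 2.35e-05).

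DC I against DC II gave 0 members, on a background of 0.0256% of genes in favour of DC I and 0.218% in favour of DC II. B cell against T cell gave 0 members, on a background of 0.0705% for B cell and 0.0256% for T cell. In each of these comparisons no member had an unadjusted p under 0.05 and DESeq2 called 0 members. Of all 15600 genes, 1399 had such a p for the dendritic cells and 1460 for the lymphocytes. The largest S phase value was that of Cdc6 in both, at 67.2 and 11.2 CPM in DC I against 2.05 and 1.40 in DC II, and at 78.4 and 42.6 CPM in B cell against 0.999 and 24.8 in T cell. Among the G2/M genes it was Aurka, the Aurora A kinase, in the dendritic cells, at 0.271 and 17 against 4.40 and 84.7 CPM, and Bub1b in the lymphocytes, at 56.9 and 65.6 against 10.6 and 14.3 CPM.

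Neutrophil against basophil gave 4 members, all G2/M genes higher in neutrophil, on a background of 1.89% of all genes in favour of neutrophil and 1.06% in favour of basophil. Ccnb2 was at 19 and 7.20 CPM in neutrophil and at 0 reads in basophil (edgeR adjusted p 0.00347). By the limit of 3 counts it was at least 286.4-fold higher. Top2a was at 7.11 and 48.2 CPM with 1 read in basophil (adjusted p 0.0121), Birc5 at 32.4 and 15.6 CPM with 1 read (0.0149) and Cenpf at 2.51 and 22 CPM with 1 read (0.0208). Cdc6, the S phase gene with the largest value, was at 0.308 and 9.43 CPM in neutrophil and at 0 reads in basophil (0.0903). The medians were -0.80 over S phase and 6.45 over G2/M genes, or 5.93 with genes at 0 reads set to their limit, against 0.36 over all genes. Of the other lists, 4 mitosis genes and 1 replication gene were called higher in neutrophil. Pttg1 was at 163.5 and 178.01 against 16.5 and 8.69 CPM (adjusted p 0.0327), and Mad2l1, a spindle checkpoint protein, at 6.99 and 16.9 against 0.0405 and 0.0508 CPM (0.00542). Spc25 (0.0341), Cdca8 (0.0484) and Clspn (0.0282) were at 0 CPM in basophil. In neutrophil they were at 0.0237, 0.0474 and 0.119 CPM in the female and at 13.8, 16.04 and 5.43 CPM in the male.

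The 4 calls of members rest on few cells. A male neutrophil with 11 S phase and 18 G2/M genes held 55.9% of the S phase and 51.9% of the G2/M reads of all male neutrophils, and over 90% of the reads of 17 of the 42 genes. Of the genes outside the 42 that were called, it held 99.2% of the male neutrophil reads of Spc25, 69% of Cdca8, 67% of Clspn, 20.6% of Mad2l1 and 3.26% of Pttg1. It had 4838 detected genes, against a median of 1395 in the other male neutrophils. Its summed level of 4 neutrophil markers was 19169 CPM, against 109536 CPM in the others. Neutrophil precursor markers stood at 0 CPM in this cell, against 30123 CPM in the others. Marker lists of other cells stood at 1987 against 551 CPM for endothelial cells, 1187 against 159.2 CPM for myeloid progenitors, 531 against 16.1 CPM for mast cells and 528 against 810 CPM for Mac II. Without it, Ccnb2 (adjusted p 0.00944), Birc5 (0.0169) and Top2a (0.0186) were still called and Cenpf (0.153) was not, while Tyms and Uhrf1 were called lower in neutrophil. A female neutrophil with 4 G2/M genes held 937 reads of Birc5 and also had reads of Top2a and Ccnb2. Without the female basophils no member was called, and with only the 2 subtypes in the fit no member was called. The part of cells captured together in 1 well was not tested.

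The single Mac I cell had 4 S phase and 21 G2/M genes, with 4102 reads of Top2a and 916 of Mki67 among its 2440163 reads.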

How the data were processed

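The authors deposited raw counts for each gene in each cell. They were used unchanged for 1183 cells from plate-based Tn5 libraries. The submitters' processing notes name STAR 2.5.2b, HTSeq 0.10 and the build GRCh38, a human build, although the organism is mouse; how that build was used is not given in the sources used here. No molecular identifiers are named, so intervals (exact Clopper-Pearson, 95%) cover counting error only, and reads are not independent molecules. Counts were summed per animal and labelled subtype and tested with edgeR 4.0.16 (R 4.3.3; TMM, filterByExpr, quasi-likelihood F test, 1 coefficient per subtype), with a Benjamini-Hochberg adjusted p under 0.05 called; the common coefficient of variation was 1.15. The procedure was also run on simulated data with a smaller spread than these data, so that run does not show how well it works here. DESeq2 1.42.0 was an alternative. CPM were computed here without TMM factors. A fold against 0 reads is a limit set by 3 counts over the group. It covers counting error only, as reads are not independent, and is no lower limit over cells or animals. P-values measure the spread between 2 animals.

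Phase counts used cells thinned to 100000 reads with seed 7; 5 shallower cells were left out, and no doublet caller was run. Sums of the same animal share that animal: their deviations from the subtype means correlated at -0.06 to 0.08 (median 0.03) over 105 pairs of subtypes. The members and lists were chosen with earlier results of these data known. Any member could be named. In each comparison the called members were named, up to 8, with the largest log2 fold change of each phase where fewer passed, and called genes of other lists, up to 4 a list (by adjusted p where all subtypes were tested together). Other members were named after their values were seen. Bub1b, Cenpa, Cks2, Pcna, Mki67 and Gins2 were described in cells with fewer than 4 other genes of each phase after their values were seen. Promoters came from RefSeq (GRCm38.p6) and overlaps from GENCODE vM21.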

Additional observations from a re-analysis of the deposited data

How the results depend on the processing

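Each animal gives 1 value per subtype, which limits every comparison. The pairing of sums by animal, entered as a replicate block, took the members called in Mac III against Mac II from 0 to 2 and among the 15 subtypes from 23 to 22, and changed no other count. DESeq2 called 7 members in Mac III against Mac V, 11 in Mac IV against Mac V, 10 in Mac III against Mac II, 19 in neutrophil against basophil (17 higher and 2 lower) and 35 among the 15 subtypes; its calls held all 23 made by edgeR. With only the 2 subtypes in the fit, 4 members were called in Mac III against Mac IV (1 higher, 3 lower), 6 in Mac III against Mac V, 4 in Mac IV against Mac V, 4 in Mac III against Mac II and 0 in neutrophil against basophil. Leaving out each animal's sum of a subtype in turn gave 0 to 7 members in neutrophil against basophil, 0 without the female basophils and 7 without the female neutrophils, and 0 in the other 7 comparisons. The cause of these shifts was not tested, and the shares of all genes called in these alternatives are not given here. Without a low-count filter 24 members were called among the 15 subtypes, with the labels' coverage as library size 26, and without the male neutrophil described above, an alternative chosen after seeing the data, 27, and 5 in neutrophil against basophil (3 higher, 2 lower).

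The shares of cells with S phase and with G2/M genes were 29% and 17.6% at 2 reads a gene, 19% and 13.6% at 10 reads, 32.9% and 19.5% with 3 genes, 16.6% and 12.4% with 6 genes and 19.3% and 13.3% when thinned to 50000 reads. Without thinning, at 50 CPM, the S phase share was 24%, and in run DC35 alone 22.7%. By animal they ran from 24.2% to 24.3% and from 14.3% to 16.8%.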
